A study of Mus musculus with 8 samples.

Results

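Contacts between whole chromosomes were examined for 5 gene-rich mouse chromosomes (2, 4, 5, 7 and 17) and 6 gene-poorer ones (1, 3, 6, 10, 13 and 14). These 11 chromosomes form 55 of the pairs of different autosomes, and the other 116 pairs involve at least 1 of the 8 remaining autosomes. Of the 55 pairs, 10 join gene-rich chromosomes to each other, 15 join gene-poorer chromosomes to each other and 30 are mixed, with 1 partner from each set. The chromosomes were chosen by set and not by a measured contact value, and all 55 pairs were measured in all 8 libraries.

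In the interphase nucleus each chromosome occupies its own territory, and contacts between chromosomes form where territories meet. Gene-rich chromosomes are generally found nearer to the nuclear interior, and gene-poor ones nearer to the nuclear periphery and the lamina. RING1B is a catalytic subunit of Polycomb repressive complex 1, which adds ubiquitin to histone H2A and compacts chromatin at repressed developmental genes. The I53A substitution in RING1B impairs its interaction with the ubiquitin-conjugating enzyme, so that its ligase activity is lost or strongly reduced, whereas a knockout removes the protein.

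The data are Hi-C libraries, in which chromatin contacts are fixed, cut, ligated and sequenced as read pairs. The cells were feeder-free mouse embryonic stem cells of the E14tg2A line, with intact Ring1B+/+ alleles in the wild type (WT, 4 libraries). A derivative line carried Ring1B I53A/I53A (2 libraries), and another was Ring1B -/- (KO, 2 libraries). Fixation used 1% formaldehyde for 10 min and digestion used DpnII. Each mutant genotype is named as a single derivative line, so a difference between genotypes cannot be told apart from a difference between lines. The labels call the libraries biological replicates without stating what separated them, so any p-value measures the spread between these libraries.

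The libraries held 121369690 to 164477401 unique read pairs in WT, against 224243196 and 226877778 in I53A and 262828203 and 268942815 in KO. A single member pair of chromosomes was supported by 52281 to 456138 read pairs in a library. The share of unique pairs separated by under 1 kb ranged from 37.0% to 44.9% over the WT libraries. It was 30.1% and 11.7% for I53A, and 20.3% and 27.5% for KO, below all WT libraries. Contacts with other chromosomes made up 10.4% to 12.3% of the read-pair ends on the gene-rich chromosomes in WT, 12.4% and 15.9% in the I53A libraries, and 16.9% and 15.9% in the KO libraries, so these too were separate from WT. The part of either share in the results below was not tested. Chromosome 11 supplied 6.41% of the chromosome ends of autosomal contacts between chromosomes on average in WT and 9.07% in KO, and chromosome 15 supplied 6.30% and 6.33% in WT 1 and WT 2 against 4.32% to 4.48% in the other 6 libraries. Neither is a member.

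The measure for each pair is the log2 ratio of observed read pairs to those expected from the totals of both chromosomes. The expected counts preserve each autosome's total over its 18 partners in each library, which removes the effect of an extra copy of a whole chromosome on that total. The ratio is therefore relative, since a gain with some partners is balanced by losses with others, and a ratio of 0 means as many contacts as the totals predict.

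The chromosome sets did not overlap in gene density. The gene-rich set carried 8.58 to 13.6 protein-coding genes per Mb (mean 10.5) and the gene-poorer set 6.28 to 8.04 (mean 7.26). GC content was 42.1% to 43.0% in the first and 40.5% to 41.6% in the second, so density and base composition cannot be told apart here. Mean length was close, at 147.5 Mb for the gene-rich and 147.0 Mb for the gene-poorer set, and DpnII recognition sites (GATC) numbered 2.52 and 2.49 per kb. The sets are not the extremes of the genome. In the mm9 build, chromosome 7 (chr7:1-152524553) ranked first of 19 autosomes in gene density and chromosome 17 (chr17:1-95272651) ranked 4, whereas chromosomes 2, 4 and 5 ranked 6, 7 and 8. Chromosome 1 (chr1:1-197195432), the sparsest member, ranked 17.

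Chromosomes of the same set were in contact more than mixed ones in every library, by a small amount. In WT the mean log2 ratio over the 25 same-set pairs exceeded that over the 30 mixed pairs by 0.0182 ± 0.000513 (SD, n = 4), which corresponds to 1.27% ± 0.0360 more contacts. The WT libraries gave 0.0188, 0.0184, 0.0178 and 0.0178, with an error from counting alone of 0.00113 to 0.00136. The WT libraries spanned less than this error. The RING1B libraries, described below, differed within each genotype by more than theirs.

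Both kinds of same-set pair contributed. In WT the gene-rich pairs averaged 0.0113 ± 0.00267 (SD, n = 4), the gene-poorer pairs 0.0149 ± 0.00239 and the mixed pairs -0.00478 ± 0.000906. Individual pairs varied much more than these averages. The WT mean was above 0 for 9 of 10 gene-rich, 12 of 15 gene-poorer and 10 of 30 mixed pairs, against 71 of all autosome pairs. Counting only pairs on the same side in all 8 libraries, 5 gene-rich, 10 gene-poorer and 9 mixed pairs were above 0 throughout, against 56 of all autosome pairs. Below 0 throughout were 1 gene-rich, 2 gene-poorer and 13 mixed pairs, against 63 of all.

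**Figure D1:**
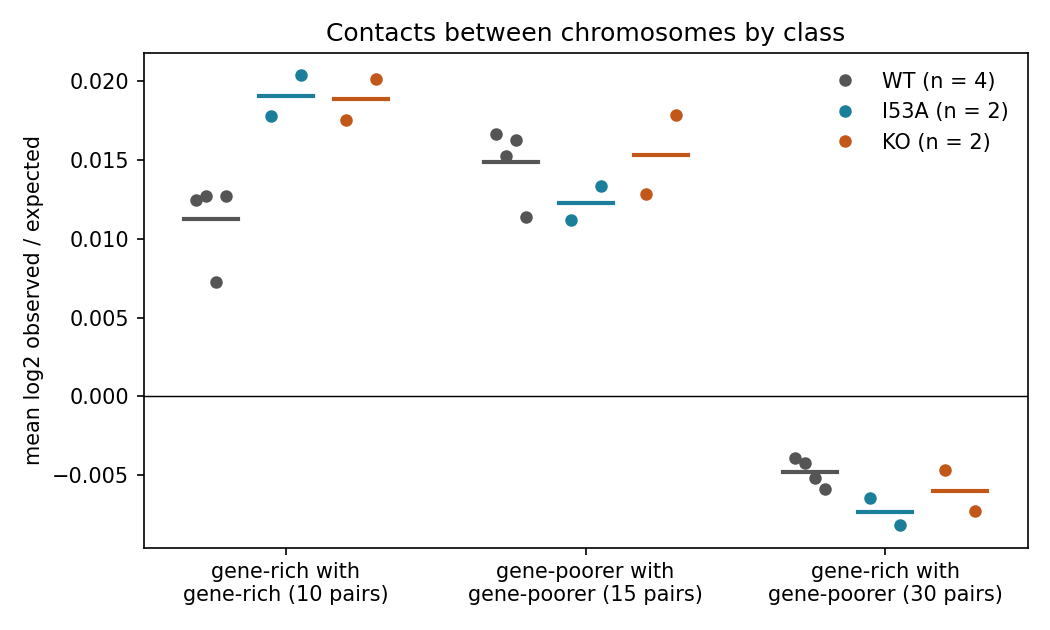
Mean log2 observed over expected contacts (vertical axis) for gene-rich, gene-poorer and mixed chromosome pairs, with 1 point per library, colours for genotype and a bar at each genotype mean. The gene-rich and gene-poorer classes lie above 0 and the mixed class below 0 in all 8 libraries, and the gene-rich class is higher in the 4 RING1B libraries (0.0175 to 0.0203) than in WT (0.00726 to 0.0127).

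Among gene-rich pairs, the highest WT ratios belonged to the pairs that chromosomes 2, 4 and 5 form with each other. Chromosomes 2 and 4 gave a log2 ratio of 0.0458 ± 0.0171 (SD, n = 4), chromosomes 4 and 5 gave 0.0320 ± 0.0062, and chromosomes 2 and 5 gave 0.0264 ± 0.0094. The lowest gene-rich pairs all held chromosome 17, the shortest of the 11. Its ratio was 0.0029 with chromosome 5 and 0.0015 with chromosome 4, and it was -0.0357 with chromosome 2.

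Among gene-poorer pairs, chromosomes 1 and 3, the longest of that set, had the highest ratio of all 55 at 0.0642 ± 0.0073 (SD, n = 4). The libraries gave 0.0727, 0.0609, 0.0672 and 0.0560 in WT, against 0.0638 and 0.0654 in I53A and 0.0543 and 0.0650 in KO. This pair was high in every library, with overlapping groups. Chromosomes 10 and 13 followed at 0.0337 ± 0.0018 and chromosomes 1 and 6 at 0.0255. The lowest were chromosomes 6 and 10 at -0.0004, 6 and 14 at -0.0145, and 3 and 14 at -0.0163.

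Mixed pairs were not uniformly low. The pair of chromosomes 4 and 6 had a WT ratio of 0.0465, the second highest of the 55 and above every gene-rich pair, and chromosome 6 with chromosome 2 gave 0.0416 ± 0.0093. Chromosomes 1 and 4 gave 0.0283. At the other end stood chromosomes 4 and 14 at -0.0436, 1 and 17 at -0.0438, and 2 and 14 at -0.0613, the lowest of the 55. Chromosome 6 was thus in contact with gene-rich chromosomes 2 and 4 above the expected count, and chromosome 14 with the same chromosomes below it.

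**Figure D2:**
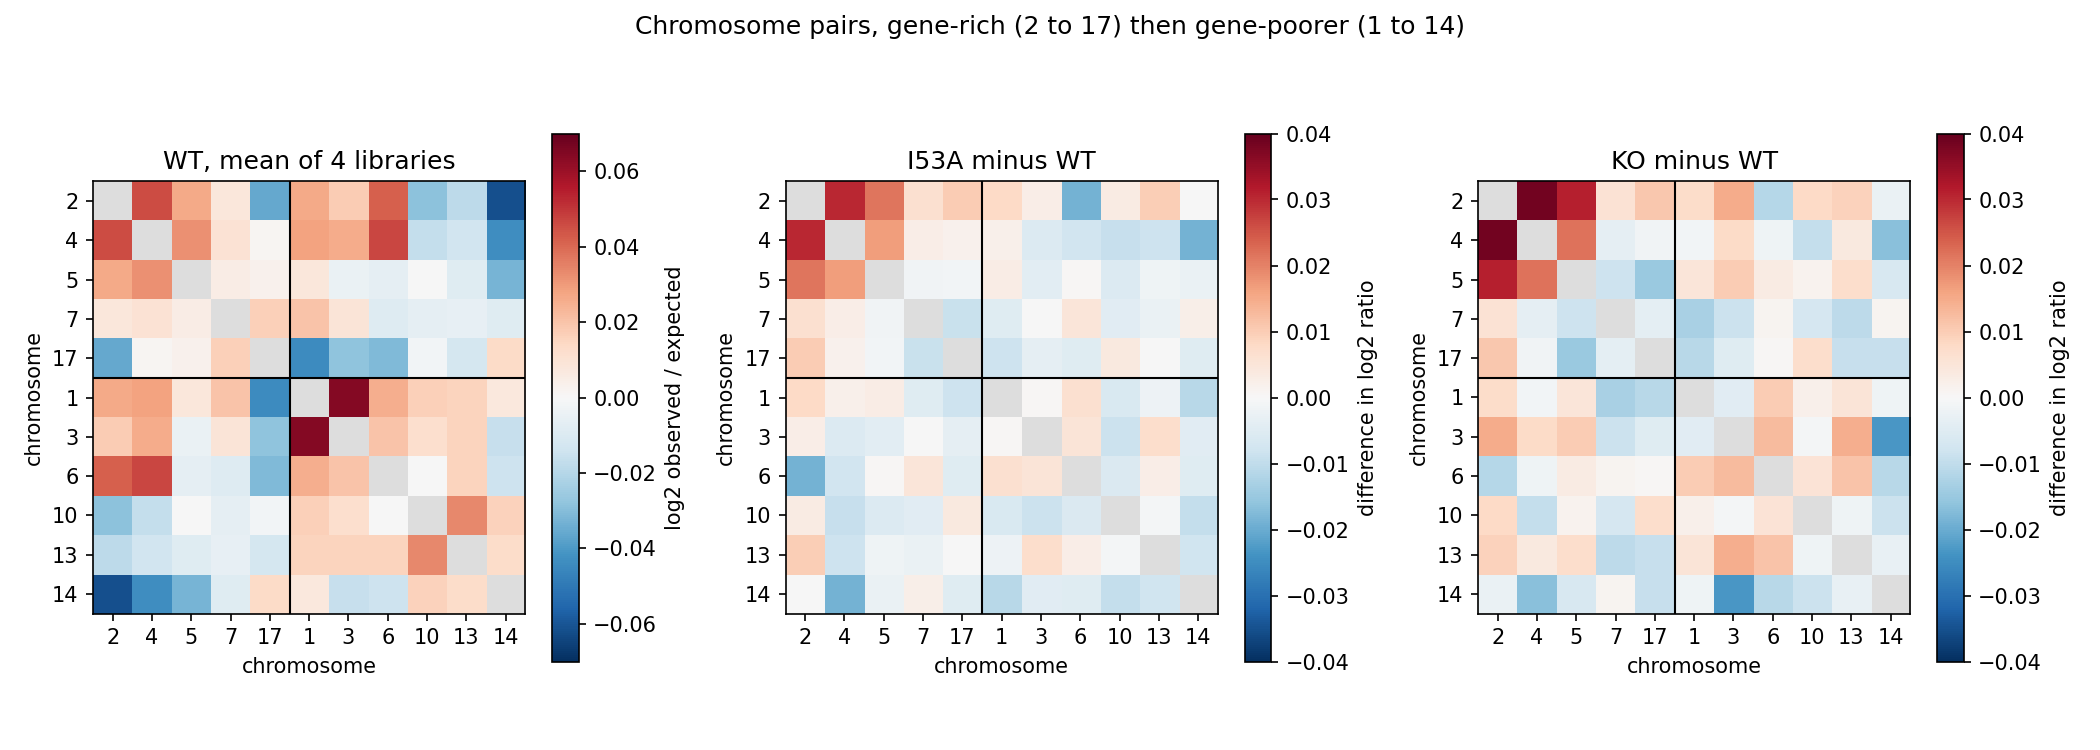
Maps for every pair of the 11 chromosomes, with the gene-rich set before the gene-poorer set on both axes and lines between the sets. The first panel shows mean log2 observed over expected contacts in WT. The others show the differences in this mean, I53A minus WT and KO minus WT. In the WT panel, pairs 1 and 3, 2 and 4, and 4 and 6 are high, and pairs 2 and 14 and 1 and 17 are low.

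Chromosome length was more closely related to the ratios than gene density. Over the 55 pairs in WT, Pearson's r between the log2 ratio and the product of centred log2 lengths was 0.612 (Spearman's rho 0.586), and with the product of centred gene densities it was 0.225 (rho 0.276). These correlations run over pairs that share chromosomes and libraries and are given as descriptions. The classes themselves were close in mean length, with a geometric mean length per pair of 145.6 Mb for gene-rich and for gene-poorer pairs and 145.9 Mb for mixed pairs. Close means do not balance the product of centred lengths. After the length term was removed, the same-set excess in WT was 0.0211 ± 0.000940 (SD, n = 4), against 0.0182 ± 0.000513 before.

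Taken chromosome by chromosome, 10 of the 11 had higher mean ratios with partners of their own set than with the other set in all 8 libraries. The WT difference was largest for 3 gene-poorer chromosomes, at 0.0303 for chromosome 13, 0.0276 for chromosome 14 and 0.0261 for chromosome 10. Gene-rich chromosome 5 followed at 0.0239. Chromosomes 1, 4, 3, 2 and 17 lay between 0.0136 and 0.0181, and chromosome 7, the most gene-dense, was at 0.010. The exception was chromosome 6, at 0.00083 ± 0.0029 (SD, n = 4), which was below 0 in WT 2, WT 3 and WT 4 and above 0 in the other 5 libraries.

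The 8 autosomes outside the sets were compared on the same scale, as their mean ratio with the 5 gene-rich minus that with the 6 gene-poorer chromosomes. In WT this difference was 0.0299 for chromosome 11, 0.0280 for chromosome 9 and 0.0191 for chromosome 19, and it was -0.0252 for chromosome 8 and -0.0390 for chromosome 18. Over these 8 chromosomes its Pearson's r was 0.819 with gene density (rho 0.833), 0.705 with GC content (rho 0.738) and -0.0119 with length. Over the 11 members, r was 0.611 with gene density (rho 0.655) and 0.755 with GC content (rho 0.636). Over all 19 autosomes it was 0.718 with gene density (rho 0.753) and 0.725 with GC content (rho 0.718). Which of the properties had the higher r thus differed between these groups of chromosomes. None of the 8 was used to define the sets, although they share libraries and totals with the members.

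**Figure D3:**
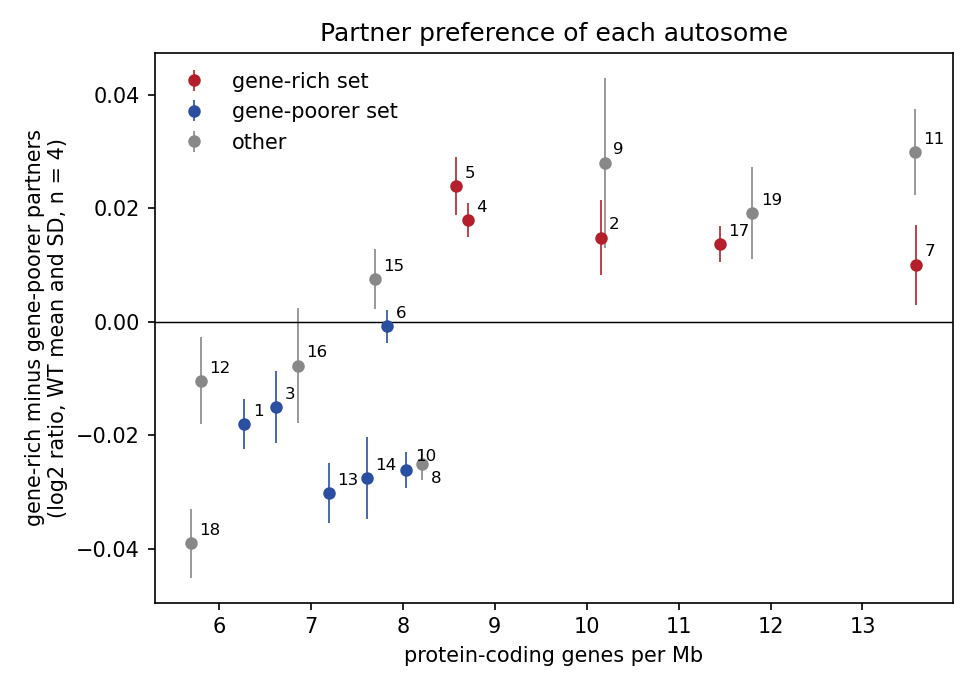
Mean log2 ratio with gene-rich minus mean with gene-poorer partners in WT (vertical axis) against protein-coding genes per Mb (horizontal axis), 1 point per autosome, coloured by set. Sparse chromosome 18 lies lowest at -0.0390 and dense chromosomes 9 and 11 are among those above 0.

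In the catalytic mutant and the knockout, the same-set excess was larger on average than in WT, without overlap between libraries. It was 0.0203 and 0.0243 in the I53A libraries, a mean of 0.0223 ± 0.00285 (SD, n = 2) or 1.56% ± 0.201 more contacts. In KO it was 0.0194 and 0.0260, a mean of 0.0227 ± 0.00468 or 1.59% ± 0.330. The difference from WT was 0.00407 for I53A (pooled SD 0.00149) and 0.00449 for KO (pooled SD 0.00238). Both share the WT libraries. With 1 library left out, the I53A difference was 0.00608 without I53A 1 and 0.00205 without I53A 2, and the KO difference was 0.00780 without KO 1 and 0.00118 without KO 2. The gap between the KO libraries, from 0.0194 to 0.0260, is wider than the KO difference from WT, and the I53A libraries lie about as far apart as the I53A difference. The counting error in the RING1B libraries was 0.000751 to 0.000920. KO 1 at 0.0194 lay above WT 1 at 0.0188, the highest WT library, by less than the counting error of either (0.000751 and 0.00121). The separation of KO from WT therefore lies within counting error. I53A and KO overlapped, with a difference of -0.000425 and a pooled SD of 0.00388.

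**Figure D4:**
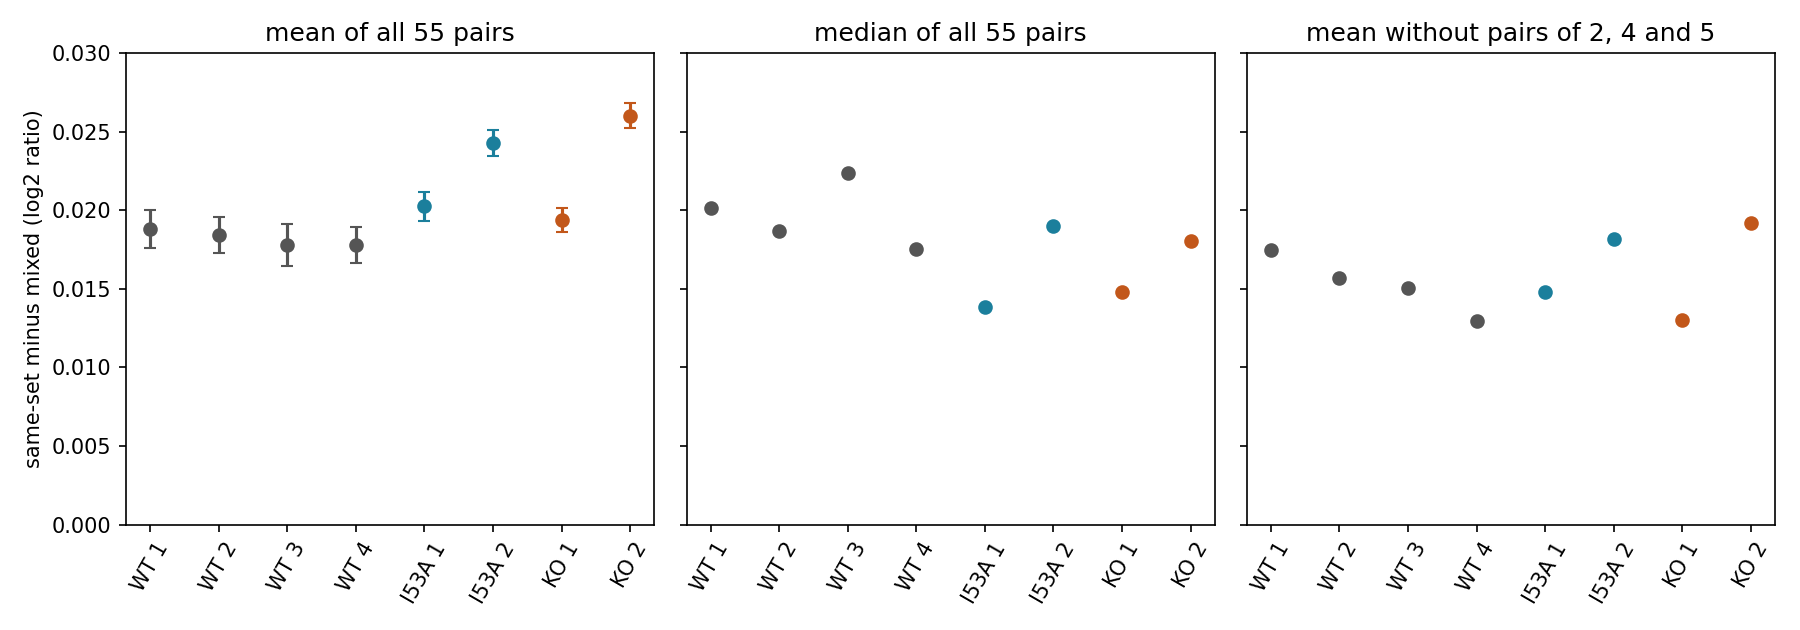
Same-set minus mixed log2 ratio for each of the 8 libraries (points). The first panel shows the mean over all member pairs, with bars for the error from counting. The others show the median over these pairs, and the mean without the pairs of chromosomes 2, 4 and 5. In the first panel the WT libraries lie at 0.0178 to 0.0188 and every RING1B library lies above them, at 0.0194 to 0.0260. For the median, I53A 1 (0.0139) and KO 1 (0.0148) lie below WT (0.0175 to 0.0223). I53A 2 (0.0190) and KO 2 (0.0181) lie within the WT range. Without the pairs of chromosomes 2, 4 and 5, both RING1B groups overlap WT.

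The libraries also fell into 5 in which over 40% of the unique pairs had 1 side rescued from a chimeric read (deposited pair types UR and RU, read by their usual meaning), and 3 with a lower share. I53A 1 is the only I53A library in the first kind and I53A 2 the only one in the second. The WT libraries of the second kind were WT 1 and WT 2, with 6.30% and 6.33% of chromosome ends from chromosome 15. That share was 4.48% in I53A 2. In WT the rescued share and the chromosome 15 share therefore cannot be told apart. Since all RING1B libraries lie above all WT libraries, the direction within each kind was fixed, and only the sizes are given. With a high share, the excess was 0.0178 in WT, 0.0203 in I53A and 0.0227 in KO. With a low share it was 0.0186 in WT and 0.0243 in I53A, with no KO library. The I53A difference from WT was 0.00247 in the first and 0.00566 in the second, and the KO difference was 0.00491.

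The classes differed unevenly between genotypes. In I53A the mean over same-set pairs was 0.00154 higher than in WT, with overlap, and the mean over mixed pairs differed by -0.00252, without overlap, so the mixed pairs made up the larger share of the I53A difference. In KO the same-set mean was 0.00329 higher and the mixed mean differed by -0.00120, both with overlap. The gene-rich pairs were the only same-set class separate from WT in both RING1B groups. Their mean log2 ratio was 0.0124, 0.0127, 0.00726 and 0.0127 in WT, against 0.0178 and 0.0203 in I53A and 0.0175 and 0.0201 in KO. Neither RING1B group overlapped WT in this mean, whereas the median over the 10 gene-rich pairs overlapped in both, with differences of 0.000690 for I53A and -0.000967 for KO. The gene-poorer pairs overlapped between all genotypes, at 0.0149 ± 0.00239 in WT, 0.0123 ± 0.00153 in I53A and 0.0153 ± 0.00353 in KO (SD, n = 4, 2 and 2). The mixed pairs were lower in I53A, at -0.00731 ± 0.00120, than in any WT library, and overlapped WT in KO, at -0.00598 ± 0.00182.

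Within the gene-rich set the difference in the mean lay in the pairs among chromosomes 2, 4 and 5, a group singled out after its values were seen. The mean over these 3 pairs was 0.0247, 0.0343, 0.0328 and 0.0471 in WT, against 0.0540 and 0.0609 in I53A and 0.0616 and 0.0689 in KO. Every RING1B library was higher than every WT library. The other 7 gene-rich pairs averaged 0.00120 ± 0.00500 (SD, n = 4) in WT, 0.00259 ± 0.000530 (n = 2) in I53A and -0.00108 ± 0.000454 (n = 2) in KO, with overlap. Without the 3 pairs the same-set excess was 0.0153 ± 0.00186 in WT, 0.0165 ± 0.00242 in I53A and 0.0161 ± 0.00437 in KO, and the genotypes overlapped.

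Chromosomes 2 and 4 gave log2 ratios of 0.0302, 0.0369, 0.0466 and 0.0694 in WT, against 0.0716 and 0.0801 in I53A and 0.0807 and 0.0882 in KO. The RING1B libraries were all above WT, although WT 4 came close to the lower I53A library. Chromosomes 2 and 5 gave 0.0213, 0.0308, 0.0164 and 0.0372 in WT, against 0.0460 and 0.0495 in I53A and 0.0530 and 0.0618 in KO. The groups were separate here too, with KO above I53A. Chromosomes 4 and 5 gave 0.0227, 0.0351, 0.0354 and 0.0348 in WT, against 0.0445 and 0.0529 in I53A and 0.0512 and 0.0566 in KO. The RING1B libraries were again all higher than WT, with I53A and KO interleaved.

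**Figure D5:**
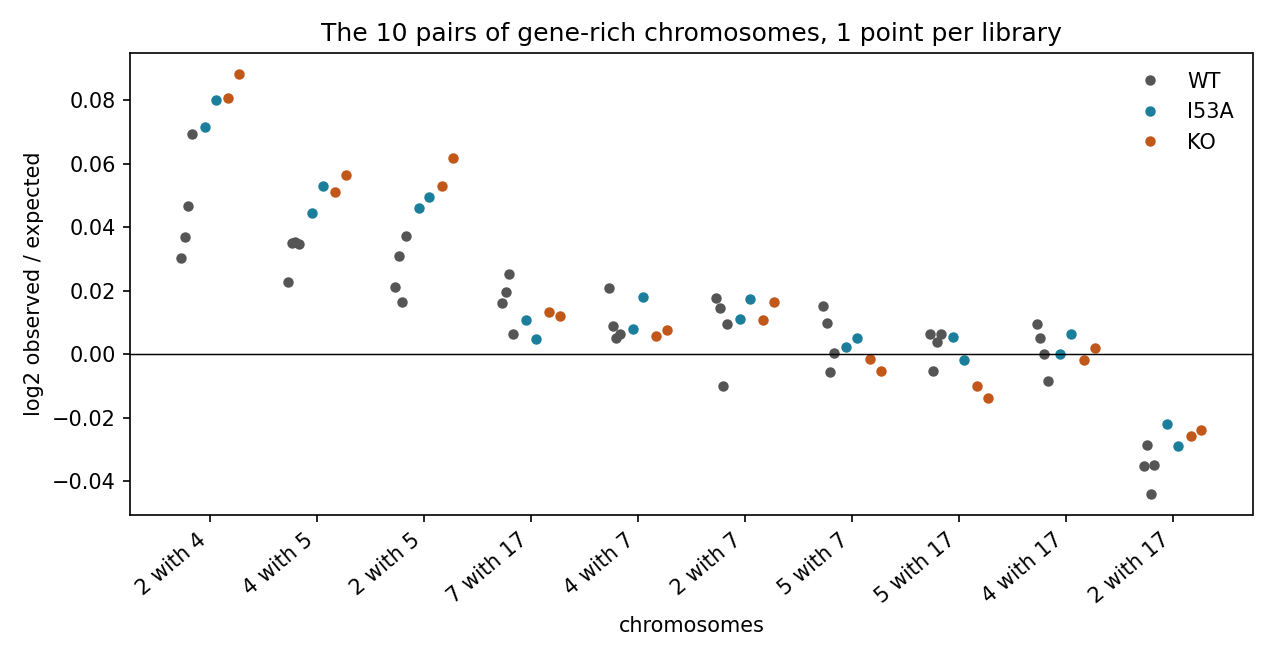
Log2 observed over expected contacts for each of the 10 gene-rich chromosome pairs, with 1 point per library coloured by genotype. In the pairs 2 and 4, 2 and 5, and 4 and 5 all RING1B libraries lie above all WT libraries.

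Tested pair by pair with edgeR's quasi-likelihood test, with Benjamini-Hochberg adjustment over all autosome pairs, contacts between chromosomes 2 and 5 rose in KO by 0.031 ± 0.0065 (SE) on the log2 scale (adjusted p = 0.0446, higher in 2 of 2 KO libraries than in all 4 WT libraries). This was the only member pair called in KO against WT, where 1.75% of all autosome pairs were called (0.585% higher and 1.17% lower), so the members' share of 1 in 55 is near the background. It missed the threshold when any of WT 2, I53A 1, I53A 2, KO 1 or KO 2 was left out (adjusted p = 0.105, 0.101, 0.100, 0.215 and 0.697), and in a fit of KO and WT alone (adjusted p = 0.0992). Within the libraries of high rescued share the adjusted p was 0.0931. Under scaling by library size without an expected count, the difference had the opposite sign, -0.0207 (adjusted p = 0.458).

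The next member pairs in KO against WT by the same edgeR test did not pass. Chromosomes 2 and 4 differed by 0.039 ± 0.0095 (SE), 4 and 5 by 0.022 ± 0.0055, and 3 and 14 by -0.023 ± 0.0056, each with an adjusted p of 0.0633. For 3 and 14 the WT ratios were -0.0117, -0.0126, -0.0135 and -0.0273, against -0.0382 and -0.0409 in KO. This gene-poorer pair was below expectation in WT and lower without overlap in KO. In KO against WT, DESeq2 called 5 member pairs (against 11.7% of all autosome pairs) and limma on the log2 ratios called 0. The edgeR count was 4 without WT 1 (9.36% of all pairs), 10 without WT 3 (23.4%) and 3 without WT 4 (4.68%), and it was 0 without any other single library. The members' shares were near or below those over all pairs.

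In I53A against WT, edgeR called 0 of the 55 member pairs, against 1.17% of all pairs (0.585% higher and 0.585% lower). DESeq2 called 4, against 11.1% of all pairs, and limma 0. Without WT 3 edgeR called 1 and without WT 4 it called 2, against 7.02% of all pairs in each. Chromosomes 2 and 4 differed by 0.030 ± 0.0096 (SE), 2 and 5 by 0.021 ± 0.0065 and 4 and 5 by 0.017 ± 0.0055, each with an edgeR adjusted p of 0.164. Mixed pairs 2 and 6 and 4 and 14 were both lower in I53A without overlap, at edgeR adjusted p of 0.164 and 0.175. Chromosomes 2 and 6 gave 0.0412, 0.0344, 0.0548 and 0.0359 in WT and 0.0237 and 0.0217 in I53A.

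Between I53A and KO, edgeR called 0 of the 55 member pairs, against 3.51% of all pairs (2.92% higher and 0.585% lower in I53A). DESeq2 called 2, against 11.1% of all pairs, and limma 0. Without WT 3 edgeR called 8, against 31.6%. The lowest edgeR adjusted p among the members was 0.156.

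Counting pairs whose genotypes did not overlap gives the direction over all members. In I53A against WT, 3 of 55 were higher, against a background of 15.2%, and these were the pairs among chromosomes 2, 4 and 5. Another 9 were lower, against 14.6%, of which 3 were gene-poorer and 6 mixed. In KO against WT, 10 were higher, against 11.7%, with 4 gene-rich, 2 gene-poorer and 4 mixed pairs among them. Another 9 were lower, against 15.2%, of which 7 were mixed. In I53A against KO, 10 were higher, against 33.3%, and 17 were lower, against 28.7%.

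The median difference of a class was not always in the direction of its mean. In I53A against WT the median difference was 0.00453 over gene-rich, -0.00467 over gene-poorer and -0.00265 over mixed pairs, beside 0.000342 over all autosome pairs. In KO against WT it was 0.00206, -0.000631 and -0.000373, beside 0.0000816 over all pairs. With medians over pairs in place of means, the same-set excess was 0.0197 in WT and 0.0164 in both I53A and KO, which turns the direction of both differences from WT.

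By chromosome, the mean ratio with gene-rich minus gene-poorer partners was 0.0148 in WT and 0.0310 in I53A for chromosome 2, 0.0179 and 0.0386 for chromosome 4, and 0.0239 and 0.0345 for chromosome 5, without overlap. In KO it was 0.0322 for chromosome 2 and 0.0347 for chromosome 4, again without overlap, and 0.0279 for chromosome 5, with overlap. Of the 19 autosomes, only chromosomes 2, 4 and 5 had a higher value and no overlap in at least 1 comparison with WT. A lower value without overlap was found for 3 of the 19 in each comparison, of which chromosome 6 in I53A, at -0.00683 against -0.00083 in WT, was the only member. Chromosomes 9 and 18 were lower in both comparisons, chromosome 18 at -0.0390 in WT, -0.0591 in I53A and -0.0534 in KO.

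Leaving out each of the 11 chromosomes in turn, the I53A difference in the same-set excess ranged from 0.000584 without chromosome 4 to 0.00600 without chromosome 10. The KO difference ranged from 0.00205 without chromosome 4 to 0.00658 without chromosome 14. Without chromosome 2 or without chromosome 4, both RING1B groups overlapped WT. Without chromosome 5, I53A overlapped WT, and without chromosome 7 or 13, KO did.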

How the data were processed

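Hi-C read pairs from 8 libraries were mapped to mm9 and summarised by the authors, per the labels; the aligner is not given in the sources used here. The deposited table holds counts of unique read pairs for each pair of chromosomes among 409 statistics per library, and the per-library files held the same values in all 8. Gene density, GC content and GATC sites came from the NCBIM37 genome with the Gencode vM1 annotation.

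For each library, expected counts for the 171 pairs of different autosomes were fitted to the chromosome totals by iterative proportional fitting that left contacts within a chromosome out. Counts were tested with edgeR 4.0.16 (R 4.3.3), glmQLFit with legacy = FALSE and glmQLFTest, with the log expected count as offset, 1 mean per genotype over all 8 libraries and Benjamini-Hochberg adjustment over 171 pairs (threshold 0.05). This option was chosen after the version's default made 15 false calls on data simulated for KO against WT. Of the 171 simulated pairs, 20 were changed by 0.05 on the log2 scale, and the setting used recovered 19 with 2 false calls. Every pair in every library was simulated with the same spread beyond counting, a coefficient of variation of 1%. The square root of the dispersion in the main fit was 1.50%. The simulation does not show how either setting behaves where the spread is larger or uneven. DESeq2 1.42.0 and limma 3.58.1 were alternatives. The difference between same-set and mixed pairs is described with its SD and has no p. Every replicate pair differed beyond sampling noise, so no library was counted as a copy.

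Pairs are named by rule: in each class the 3 highest and the 3 lowest in WT, and up to 3 rises and 3 falls per class and comparison among member pairs that passed the test without overlap; the members, lists and tests were chosen with earlier results of these data known. The group of chromosomes 2, 4 and 5, and the autosomes named outside the sets, were singled out after their values were seen.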

Additional observations from a re-analysis of the deposited data

Results flagged for a closer look

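In WT, 4 of 24 measures held a library far from the other 3, where about 1.2 would be flagged by chance. The gap to the nearest library, as a share of the group's range, was 0.952 for the mean of the gene-rich pairs, where WT 3 was low at 0.00726. It was 0.969 for chromosomes 1 and 4, where WT 4 was high at 0.0399, and 0.885 for chromosomes 3 and 14, where WT 4 was low at -0.0273. For chromosomes 4 and 5 it was 0.955, with WT 1 low at 0.0227. The threshold is 0.829 for 4 libraries.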

How the results depend on the processing

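The same-set excess was above 0 in every genotype under each alternative run. In WT it was 0.0161 with expected counts from products of totals, 0.0176 without chromosomes 11 and 15, 0.0173 from summed counts, 0.0211 on residuals from length, and 0.0155 to 0.0219 on leaving out 1 chromosome (0.0194 to 0.0256 in I53A). Sets taken from the ranks of gene density held chromosomes 7, 11, 19, 17 and 9, against 13, 16, 3, 1, 12 and 18. With them it was 0.0378 in WT, 0.0432 in I53A and 0.0454 in KO (KO minus WT 0.00761). Both RING1B groups overlapped WT with these sets, as WT 2 at 0.0425 lay above I53A 1 at 0.0412 and KO 1 at 0.0419. In I53A and KO the log2 ratio was 0.0871 and 0.108 for chromosomes 12 and 16. It was 0.0486 and 0.143 for 12 and 18, and 0.0748 and 0.122 for 16 and 18. The part of these pairs in the larger excess was not tested. Divided by the SD of the ratios, the same-set excess was 0.445, 0.556 and 0.482. The differences were then 0.111 (I53A minus WT, without overlap), 0.0368 (KO minus WT, with overlap) and 0.0747 (I53A minus KO). With medians over pairs the same-set excess was 0.0197, 0.0164 and 0.0164, and the differences were -0.00322, -0.00324 and 0.0000117. Without the pairs of chromosomes 2, 4 and 5 it was 0.0153, 0.0165 and 0.0161, with differences of 0.00118, 0.000779 and 0.000402. On leaving out 1 chromosome, I53A minus WT was 0.000584 to 0.00600, KO minus WT was as low as 0.00205 and I53A minus KO as high as 0.00109. Leaving out 1 library gave 0.00205 to 0.00608 for I53A minus WT, 0.00118 to 0.00780 for KO minus WT and -0.00373 to 0.00288 for I53A minus KO. Within high and low rescued share, I53A minus WT was 0.00247 and 0.00566.

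Calls among the 55 pairs are given as I53A against WT, KO against WT and I53A against KO, and were 0, 1 and 0. Leaving out 1 library gave 0 to 2, 0 to 10 and 0 to 8. KO against WT had 0 calls with chromosome X in the expected counts, within high rescued share, with limma, and with KO and WT alone. In the last 2 comparisons, expected counts from products gave 9 and 3 calls (24.0% and 15.8% of all pairs) and library-size scaling gave 28 and 55 (49.1% and 72.5%). I53A and KO alone gave 7 (26.9%). Within low rescued share, I53A 2 alone stood against WT 1 and WT 2, so no count of calls is given. DESeq2 gave 4, 5 and 2 (11.1%, 11.7% and 11.1%), and the default edgeR fit, added after seeing the data because of its low errors, gave 6, 22 and 10 (20.5%, 40.9% and 35.1%). A replicate block gave 1, 7 and 6 (7.60%, 19.3% and 27.5%), and 11 in the RING1B libraries alone (36.3%). The shared numbers do not pair the libraries by the labels. Same-numbered I53A and KO libraries deviated together (r = 0.396). With 2 libraries in each of these genotypes, the deviations from the genotype mean mirror each other. Both same-numbered pairs therefore give this 1 value, which cannot settle whether the libraries were paired. WT 1 correlated at -0.265 with I53A 1 and -0.396 with KO 1, while WT 2 correlated at 0.227 with I53A 2 and 0.114 with KO 2. For chromosomes 2 and 5, KO against WT, the difference was 0.0229 to 0.0353 in the settings that kept its sign and -0.0207 under library-size scaling. The residuals, SD, 3-pair and RING1B-only block settings were also chosen after seeing the data. The causes of these changes were not tested.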
